A study of Mus musculus with 18 samples.

Results

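The 251 cytosines in mRNA that the authors listed in their comparison of Nsun7 knockout and wild-type (WT) mouse testis were examined, out of 446 listed sites in all RNA fractions. Every row of the mRNA table was taken, and none was chosen or dropped by its value. The sites lie in 235 genes. The 6 libraries were made from polyadenylated testis RNA of adult mice, 3 labelled WT and 3 labelled Nsun7 knockout, out of 18 libraries in the series. Strain, the kind of knockout allele, whether Nsun7 was lost in all cells, and how many animals went into a library are not stated in the labels. No listed site lies in Nsun7, so these data hold no check of the knockout itself.

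5-Methylcytosine (m5C) is made on RNA by enzymes of the NOL1/NOP2/Sun (NSUN) family and by DNMT2. NSUN2 and NSUN6 are the family members best known for methylating mRNA. NSUN7 belongs to the same family, is made mainly in testis, and is known for male infertility with poorly motile sperm when it is lost. The series title describes it as lacking catalytic activity. The comparison asks whether mRNA m5C differs between testes with and without it.

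Bisulfite turns unmethylated cytosine into uracil, so the share of reads that still show C at a position is read as its m5C level. A cytosine that escaped conversion is also read as methylated, and no conversion control was used here. Coverage summed over the sites was 42086 to 55140 reads per library, and the median site had 101 to 149 reads. Bulk testis holds germ cells and somatic cells together, so a level is an average over all transcripts of a gene, and a change in cell numbers cannot be told apart from a change within cells. Among markers of testis cell types, listed sites were found in 2 of 12 spermatocyte genes, 2 of 21 spermatid genes, 1 of 17 Leydig genes and 1 of 25 Sertoli genes. Markers of spermatogonia, myoid cells and blood or macrophages had 0. A gene without a listed site may still be expressed.

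Mean levels were below 50% at 238 of the 251 listed sites, and below 10% at 48.2% of them. The level averaged over the 6 libraries had a median of 10.6%, with 25% of sites below 6.15% and 25% above 22.8%. It ran from 2.99% in Ipo5, a nuclear import receptor, to 91.6% in Bag6, a chaperone of newly made membrane proteins. Below 10% lay 121 sites, 52 lay from 10% to 20%, 65 from 20% to 50%, and 13 at 50% or above. Sites were found on 19 chromosomes, 138 on the plus and 113 on the minus strand. Chromosome 11 held 32, the largest number.

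The level distributions of the genotypes overlapped. The median level was 10.8%, 10.9% and 10.5% in the WT libraries and 11.4%, 10.7% and 10.0% in the knockout libraries. The mean over sites was 17.2%, 17.1% and 16.9% in WT and 16.9%, 17.1% and 16.4% in knockout. The ranges overlapped, and the knockout mean was lower by a difference of -0.230 percentage points, with the 9 pairs of libraries giving -0.745 to 0.217. Without 1 library at a time the difference ran from -0.360 to -0.0450, the first without knockout library 2 and the last without knockout library 3.

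**Figure D1:**
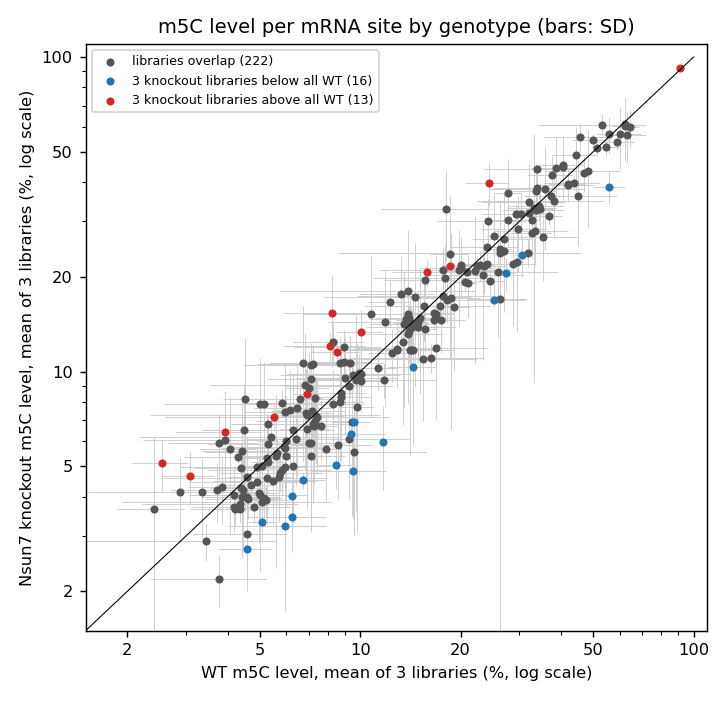
Mean m5C level in percent of each of the 251 mRNA sites in the 3 WT libraries (horizontal axis) against the 3 knockout libraries (vertical axis), both on log axes, with bars of 1 SD cut at 1%. Sites lie along the line of equal levels from Ipo5 at the bottom to Bag6 at the top.

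Means were also taken by level class. Sites below 10% averaged 6.26% ± 0.0462 in WT and 6.14% ± 0.258 in knockout (SD, n = 3 libraries). Sites at 50% or above averaged 59.4% ± 2.41 and 59.3% ± 1.65. In the classes between, the differences were 0.166 points for 10% to 20% and -0.785 points for 20% to 50%. The range over pairs of libraries spanned 0 in each class. Without single libraries the 20% to 50% class ran from -1.25 to -0.353 points, without knockout libraries 2 and 3, and the class below 10% from -0.270 to -0.0409, without knockout libraries 1 and 2. The 10% to 20% class turned to a negative difference without knockout library 1 or 2. The class at 50% or above turned to a positive one without WT library 1 or 2 or knockout library 1.

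By site, 150 levels were lower and 101 higher in the knockout mean. The median difference was -0.395 percentage points, 145 sites differed by less than 2 points, and 29 differed by more than 5. Every site had at least 4 C reads in each WT library, while knockout libraries went down to 1, and 31 sites had a knockout library below 4. At the other 220 sites, 127 were lower and 93 higher, with a median difference of -0.344 points and a mean of -0.129. The part of the WT minimum in the excess of lower sites was not tested further. No site passed the test: the moderated quasi-binomial fit, adjusted after Benjamini and Hochberg, called 0 of 251 (0%), and its lowest adjusted p was 0.742. At an unadjusted p under 0.05 that model gave 14 sites, 7 lower and 7 higher. The quasi-binomial model with each site's own dispersion called 0 (20 unadjusted), limma on the levels called 0 (14 unadjusted) and Fisher's exact test on summed reads called 0 (15 unadjusted). The knockout libraries all lay on one side of the WT libraries at 29 sites (11.6%), 16 lower (6.37%) and 13 higher (5.18%).

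The spread between libraries of a genotype was close to what read counting alone gives. Its ratio to the counting variance was 1.02 in WT and 1.10 in knockout over all sites, where 1 is counting error alone. Levels correlated across sites at r = 0.898 to 0.926 between libraries of a genotype and at 0.890 to 0.926 between genotypes, as a description over sites that share libraries. Over the 238 sites below 50%, r was 0.830 to 0.882 within and 0.837 to 0.890 between genotypes.

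How large a change the comparison leaves room for was read from the 95% interval of the knockout to WT ratio of levels at each site, not adjusted over sites. The lower bound was above 0.25 at 251 of 251 sites, so a fall by 75% lay outside the interval at each of them in this model. That count was 246 with each site's own dispersion, 195 with limma on the levels and 245 to 249 without single libraries. It was above 0.5 at 209 sites (83.3%) and above 0.75 at 81. On the other side, the upper bound was below 2 at 209 sites and below 1.5 at 140. The count for a fall by 50% was 171 with each site's own dispersion and 117 with limma on the levels. At the median site the upper bound was 2.38 times the lower bound. The lowest bound was 0.263, in Med16, a subunit of the Mediator complex of RNA polymerase II. All listed sites had at least 4 C reads in each WT library and at least 1 in each knockout library. The bounds therefore say nothing about sites with m5C in only 1 genotype.

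**Figure D2:**
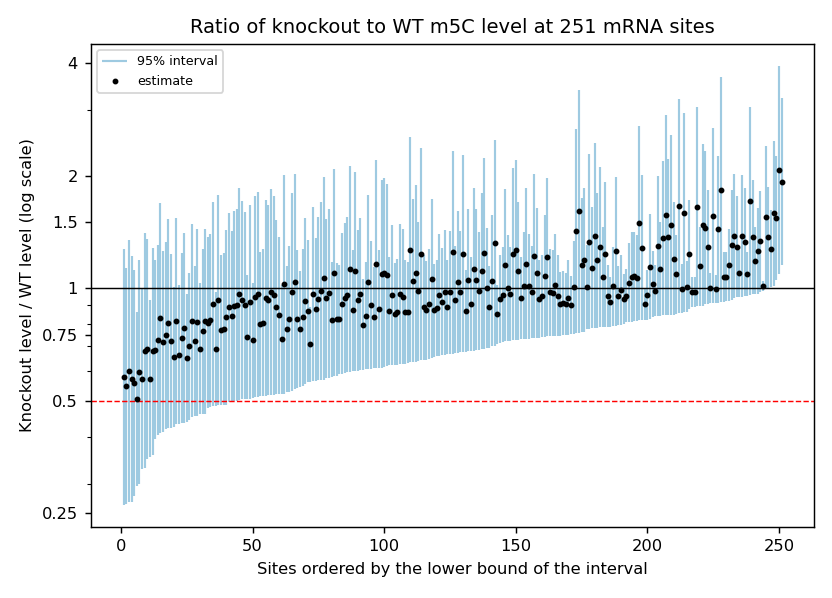
Ratio of knockout to WT m5C level with its 95% interval for each of the 251 mRNA sites. The intervals narrow to within 0.8 to 1.25 at 12 sites, and at 209 sites they stay above 0.5.

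Intervals lay wholly within 0.8 to 1.25 at 12 sites, in Insl3, Asrgl1, Ubb-ps, Pabpc1, Ldhal6b, Hk1, Ybx3, Nbr1, Bag6, Fhl4, D1Pas1 and Myl4. These are sites with many reads, a high level, or both. With limma on the levels, the lower bound stayed above 0.8 at 5 of the 12 and was below 0.5 at 2, Asrgl1 and Ubb-ps.

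Bag6 carried the highest level. At chromosome 17, position 35361763, plus strand (GRCm39), the WT libraries stood at 90.9%, 91.5% and 90.7% and the knockout libraries at 92.1%, 92.3% and 92.2%. The knockout libraries were all higher, by 1.16 points, at a coverage of 128 to 417 reads. The ratio was 1.01 with an interval of 0.982 to 1.04, and its adjusted p was 0.893 by the quasi-binomial fit.

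D1Pas1, a germ cell DEAD-box RNA helicase of the DDX3 family, was also among the highest. Its site at chromosome 1, position 186701181, had 64.2%, 60.7% and 61.9% in WT and 61.9%, 55.6% and 66.3% in knockout. The groups overlapped, with a ratio of 0.977 (interval 0.891 to 1.07). Fhl4, a testis LIM-domain protein, stood at 50%, 52.1% and 51.7% in WT and 54.7%, 49.7% and 49.9% in knockout, again overlapping. Myl4, a myosin light chain, had 61.6%, 62.1% and 69.0% against 53.8%, 69.1% and 56.2%. At 32 to 81 reads it was shallower than Fhl4, and its knockout libraries were farther apart.

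**Figure D3:**
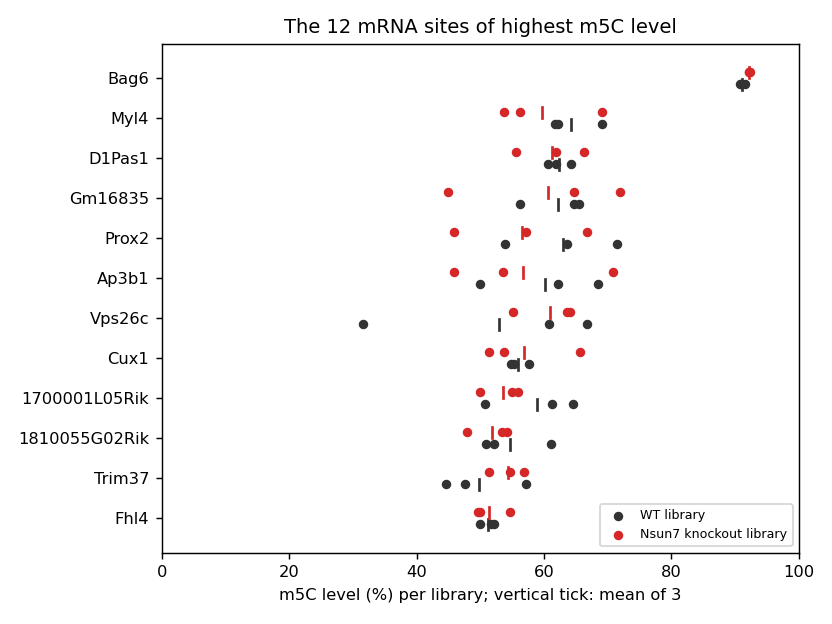
m5C level in percent in each library for the sites with the highest mean level, with the knockout drawn above WT in each row. Bag6 stands alone near 91.6%, and the libraries of both genotypes overlap at the other sites shown.

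Transcripts of RNA-binding and translation proteins made up the largest assigned group, with 31 sites and a median level of 9.72%. Roles were assigned by hand from gene names after some levels had been seen, and no test was made of them. Ybx3, a germ cell Y-box protein that binds stored mRNA, had 33.2%, 30.7% and 32.2% in WT and 29.8%, 34.2% and 31.9% in knockout. Pabpc1, the cytoplasmic poly(A)-binding protein, had 22%, 22.3% and 18.5% against 20.6%, 20.9% and 20.6%, at 832 to 1519 reads. Both overlapped between genotypes. The related gene Pabpc2 has a listed site of its own, and the labels do not say how reads were assigned between such copies.

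Within the translation factor list, 6 of 8 sites were lower, 2 were higher and 0 were called. The median difference was -1.23 points, beside -0.395 over all sites, and it turned to 0.430 without WT library 1. Eif3c, a subunit of the initiation factor eIF3, had 6.27%, 6.45% and 5.98% in WT and 4.61%, 4.20% and 3.24% in knockout. Eif4b, which helps the helicase eIF4A, had 8.57%, 7.69% and 12.3% against 5.00%, 6.17% and 3.33%. Knockout libraries were all lower at both sites, each with adjusted p = 0.742 (quasi-binomial model). In the germ cell RNA-binding list, 4 of 6 sites were lower and 0 were called. Its median difference of -0.159 points was -0.723 without WT library 2 and 0.539 without knockout library 1. Piwil1, which binds piRNAs, had 5.41%, 7.07% and 8.15% against 4.46%, 7.76% and 10.0%.

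Microtubule, cilium and flagellum transcripts held 24 sites with a median level of 13.0%, 11 lower and 13 higher in the knockout. A narrower list of sperm flagellum genes held 5 sites, in Drc3, Cfap52, Cfap43, Qrich2 and Tpgs2. Of these, 3 were lower, 2 higher and 0 called, with a median difference of -2.65 points. It was -4.99 without knockout library 3 and -1.81 without WT library 3. The mean over these 5 sites differed by -3.92 points, and the 9 pairs of libraries gave -7.80 to -0.470. The list leaves out Ccdc63, another flagellum gene and the site with the highest ratio of all. With it added, after its values were seen, 3 sites were lower and 3 higher, and the median difference was -0.0370 points. The lists were drawn up with earlier results of these data known, so their directions are not independent evidence.

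Cfap52, a protein of the ciliary doublet microtubules, had 26.7%, 26.2% and 29.3% in WT and 23%, 18.0% and 20.7% in knockout. Tpgs2, part of the enzyme complex that adds glutamate chains to tubulin, had 54.8%, 62.5% and 50% against 43.8%, 35.5% and 36.4%, on 11 to 42 reads. The knockout libraries were lower at both sites without overlap, and adjusted p was 0.742 for each (quasi-binomial model). Cfap43, an axonemal protein, had 7.27%, 9.76% and 15.2% against 6.38%, 17.1% and 22.2%, overlapping.

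Metabolic and mitochondrial transcripts held 27 sites with a median level of 10.3%, 16 lower and 11 higher in the knockout. Their median difference was -0.156 points, beside -0.395 over all sites, and their mean difference was 0.484 points. In the list of sperm energy and sugar genes, 3 of 5 sites were higher, 2 lower and 0 called, with a median difference of 2.43 points. That median fell to 1.21 without knockout library 3 and to 0.789 without both libraries numbered 3. The mean over these 5 sites differed by 2.27 points, and the 9 pairs of libraries gave 0.941 to 4.26. Slc2a5, a fructose transporter, had 9.76%, 9.38% and 5.49% in WT and 14.8%, 20.5% and 10.6% in knockout. Sord, which makes fructose from sorbitol, had 9.76%, 11.8% and 8.71% against 12.1%, 16.0% and 11.9%. Knockout libraries were all higher at both, with adjusted p = 0.742 for each (quasi-binomial model). Coverage was 47 to 123 reads at the Slc2a5 site and 51 to 379 at the Sord site. Hk1, the hexokinase that starts glycolysis, had 14.2%, 16.7% and 18.9% against 16.0%, 14.7% and 15.3%, overlapping.

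Signalling and secreted proteins held 16 sites, 13 lower and 3 higher in the knockout, with 0 called. Over all 251 sites, 150 were lower and 101 higher. Their mean over sites was 17.2%, 15.8% and 17.3% in WT and 15.5%, 15.1% and 12.7% in knockout. The libraries did not overlap, and the 9 pairs gave -4.63 to -0.312 points. Membrane traffic was the only other role group whose pairs all lay on the same side of 0. In the rest they spanned 0. The mean difference of -2.33 points was -1.47 without knockout library 3. Insl3, the Leydig cell hormone of testis descent, was among the deepest sites at 1122 to 2795 reads. It had 5.72%, 5.25% and 5.97% in WT and 5.76%, 6.00% and 4.77% in knockout, and its ratio interval was 0.864 to 1.18.

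Membrane traffic, autophagy and nuclear transport transcripts held 28 sites with the lowest median level, 8.48%, and 19 were lower. Their mean over sites was 13.8%, 15.2% and 14.3% in WT and 13.5%, 13.7% and 13.3% in knockout. The 9 pairs gave -1.91 to -0.0341 points, so the nearest libraries of the genotypes were only just apart. Without WT library 2 the mean difference of -0.918 points was -0.533. Transcription and chromatin transcripts held 29 sites with a median of 10.6%, 17 of them lower. Protein turnover and folding transcripts held 29 with a median of 11.9%, 18 of them lower. In these groups 0 sites were called. Asxl1, a chromatin regulator of the Polycomb system, had the lowest ratio of all sites, 0.505 (interval 0.296 to 0.862). Its levels were 11.7%, 11.7% and 11.9% in WT and 5.22%, 4.72% and 8.04% in knockout, which did not overlap, with adjusted p = 0.742 (quasi-binomial model).

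**Figure D4:**
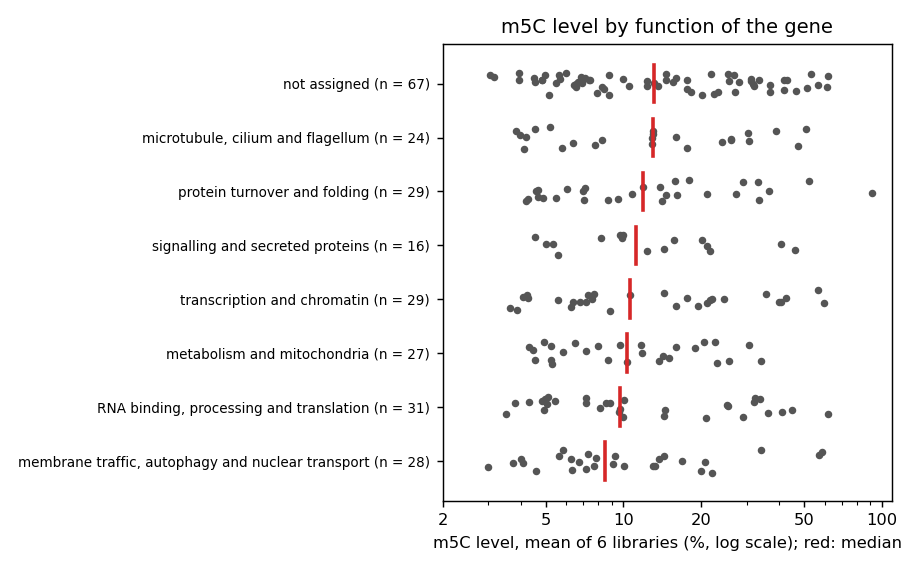
m5C level in percent of the mRNA sites by the role of the gene. The medians of the groups lie between 8.48% for membrane traffic and 13.1% for genes with no role assigned.

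Some sites stood out by p or ratio but fell outside the rule for named sites, and were picked after their values were seen. Znhit2, a zinc finger HIT-domain protein, had the lowest unadjusted p. Its levels were 10.5%, 9.13% and 9.07% in WT and 7.20%, 6.37% and 7.10% in knockout, at 352 to 750 reads. The quasi-binomial adjusted p was 0.742, with a ratio of 0.709 (interval 0.563 to 0.893). Ccdc63, a coiled-coil protein of the sperm flagellum, had the highest ratio, 2.08 (interval 1.09 to 3.93), from 2.00%, 2.73% and 2.92% to 4.89%, 6.17% and 4.32%. At both sites the genotypes did not overlap.

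Level was lower at sites with more coverage. Spearman's rho was -0.575 over 251 sites, which share libraries, and it was -0.562 in WT and -0.566 in knockout libraries alone. Among the 25% of sites with the least coverage, a median of 45.3 reads, the median level was 26.7% and 46 sites stood at 20% or above. Among the 25% with the most, at a median of 310 reads, it was 6.85% and 11 sites did. Of the sites, 43 had exactly 4 C reads, the WT minimum, in at least 1 WT library. At the median coverage of those sets, 4 reads are a level of 8.82% and 1.29%, and the lowest levels seen were 7.57% and 2.99%. How the authors chose sites is not given, and the part of such a minimum in the relation was not tested. Where each library had 30 or more reads, rho was -0.448.

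**Figure D5:**
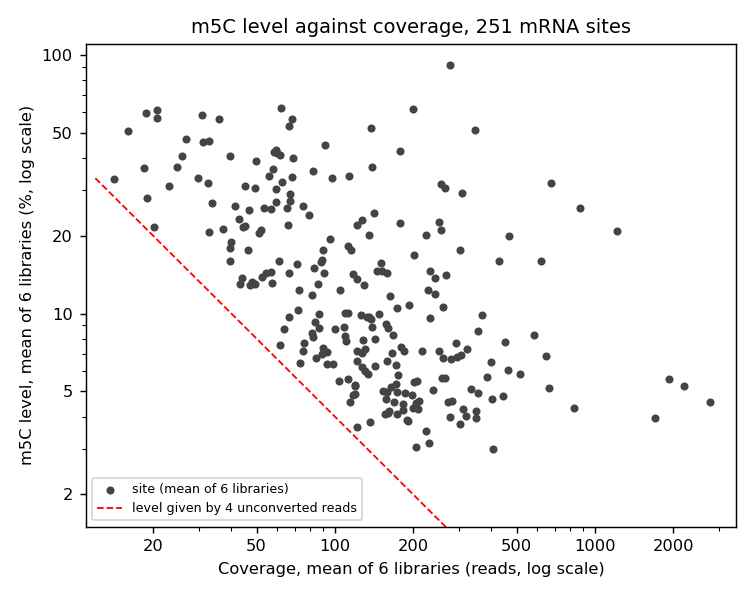
Mean m5C level in percent against mean coverage in reads for the 251 mRNA sites, with a line at the level that 4 C reads give. Of the 251 sites, 0 lie below that line, which was set from the lowest C count of these same sites in WT.

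Coverage passed the test at no site. edgeR's quasi-likelihood test, run without pairing, called 0 of 251 sites (0%), with 5 at an unadjusted p under 0.05 and a lowest adjusted p of 0.988. With a block for replicate number, edgeR called 0, with 28 at an unadjusted p under 0.05 and a lowest adjusted p of 0.170. DESeq2 called 0 of 250, with 0 unadjusted. The libraries numbered 3 stood apart in coverage in both genotypes. Coverage relative to the genotype mean correlated at 0.808 between the WT and knockout libraries numbered 3. Between a number 3 and a differently numbered library of the other genotype it correlated at -0.750 to -0.585. Values taken relative to a shared mean are tied to each other, so these correlations are not independent. At Ubb-ps, a transcribed pseudogene by symbol, WT library 3 had 8887 reads. All others, knockout library 3 included, had 1127 to 2561 there. Across sites, the difference in level and the log2 fold in coverage had a Spearman's rho of 0.0308.

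Of the 235 genes, 15 had more than 1 site, 31 sites in all. Levels within a gene differed by more than 10 points in 3 of these genes, Ypel1, Cux1 and Pcbp3. In the others the gap ran from 0.0135 points in Cox7c to 8.38 in B9d1. In Ypel1 a site had 37.4% ± 3.94 in WT and 36.1% ± 1.85 in knockout, while another 225 bases away had 3.46% ± 2.12 and 2.89% ± 0.387 (SD, n = 3). Cux1, a homeodomain transcription factor, had sites at 55.9% ± 1.47 and 19.1% ± 2.14 in WT, 76252 bases apart. Pcbp3, a poly(C)-binding protein, had 27.8% ± 2.75 and 9.48% ± 3.72, 173326 bases apart. Whether such distant sites share a transcript was not tested. In each of these 3 genes the order of the sites was the same in the knockout.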

How the data were processed

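Per the labels' protocols, testis RNA was captured on oligo-dT beads, treated with ultrafast bisulfite reagent and sequenced with a stranded kit. The submitters' processing notes name GRCm39 and the tools HISAT2, Bowtie2, SAMtools, Trimmomatic and cutadapt without versions. How sites were selected is not stated. By the table's headers, the deposited values are counts of reads covering a site and counts of reads showing C, without normalization, and a level as a fraction. Levels were recomputed from the counts as percentages.

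The members, lists and tests were chosen with earlier results of these data known. The main test is a logistic model of C reads out of coverage at each site, with quasi-binomial errors, with a dispersion moderated over sites (limma 3.58.1) and not below 1, coverage of at least 10, two-sided, adjusted after Benjamini and Hochberg at 0.05. It replaced an earlier analysis of these data that used each site's own dispersion, and it was already known that both called 0 sites. Moderation gave 1 common dispersion, 1.06, at every site, while the sites' own dispersions ran from 0.0280 to 4.60, so intervals do not carry a site's own spread. A further 14 fits were run, 1 of them chosen after seeing the data, and 0 of them made a call. The set without sites low in knockout reads, the flagellum list with Ccdc63 and the role groups without single libraries were also added after seeing the data. Ratio intervals use the delta method on summed reads and cover 95% per site. Coverage was tested with edgeR 4.0.16 and DESeq2 1.42.0. Sites named by rule are the highest levels, the deepest, the largest differences without overlap, the narrowest and widest intervals, genes with several sites and list genes. Nothing says that libraries came from separate animals, so the spread between libraries may be technical. Main p-values use that spread pooled over all sites, as the common dispersion of 1.06, and not a site's own spread. Fisher's exact test on summed reads uses no spread between libraries. Intervals treat reads as separate molecules, which the protocol, without molecular identifiers, does not ensure. Same-numbered libraries correlated in coverage at 0.513, 0.693 and 0.808, and in residual m5C at 0.0862, -0.0107 and 0.0812. By the limit of 0.1 for each pair, only coverage passed as paired. The main edgeR test of coverage was still run without pairing, with the replicate block as an alternative. Differently numbered libraries 1 and 2 correlated in coverage at 0.506 and 0.483, and those with a number 3 at -0.750 to -0.585. In coverage the libraries numbered 3 thus stood apart from the rest. These correlations are not independent, since coverage was taken relative to the mean of each genotype. Gene symbols were matched to a RefSeq table of GRCm38.p6 for gene type only (225 of 235 genes).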

Additional observations from a re-analysis of the deposited data

How the results depend on the processing

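The count of sites called was 0 under every alternative run, with 7 to 20 sites at an unadjusted p under 0.05. The count whose interval leaves out a fall by 50% was 209, and 117 with limma on the levels, 183 to 189 without single libraries and 169 without both libraries numbered 3, an alternative chosen after seeing the data. With the replicate block the m5C model called 0 sites and that count was 206. With the replicate block the coverage test in edgeR called 0 sites, with 28 at an unadjusted p under 0.05. Level against coverage moved from -0.575 to -0.448 at sites with at least 30 reads.

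Directions of small differences were not stable. Among 89 named sites, 43 differences changed sign when some library was left out, 33 others moved by over 1.5 times, and 13 did neither. The class from 10% to 20% ran from -0.0615 to 0.566 points, that at 50% or above from -1.40 to 0.892, the translation list from -2.05 to 0.430, the germ cell RNA list from -0.723 to 0.539 and the chaperone list from -2.02 to 0.291. The class from 20% to 50% ran from -1.25 to -0.353 and that below 10% from -0.270 to -0.0409. At least 30 reads in all libraries were present at 217 of 251 sites.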

Other observations

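Some listed transcripts do not code for protein. By symbol, 11 sites lay in long noncoding RNAs, with a median level of 22.3% and a median coverage of 68.7 reads, and 226 in protein-coding genes, with 9.99% and 128.9 reads. Among the former, Gm16835 had 65.5%, 56.2% and 64.7% in WT and 72.0%, 45.0% and 64.7% in knockout, overlapping. A730035I17Rik had 24.3%, 20.6% and 28.0% in WT and 36.4%, 36.0% and 47.1% in knockout, without overlap, on 17 to 50 reads and with adjusted p = 0.742 (quasi-binomial model). The part of coverage in the gap between the gene types was not tested.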
